A study of Mus musculus with 6 samples.

Results

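The response of TIARP-deficient (KO) peritoneal macrophages to tumour necrosis factor alpha (TNFα, TNF below) was read from 2 of the 6 arrays of the series, 1 array of KO macrophages labelled with TNFα for 24 h and 1 without that label. Steap4 encodes TIARP, a metalloreductase in cell membranes. All mice were C57BL/6 and either TIARP+/+ (WT) or TIARP-/- (KO). The macrophages had been drawn to the peritoneal cavity by thioglycollate given 3 days before, and the same 2 conditions were available from WT mice, each on 1 array. The other 2 arrays held Ly6G+ neutrophils taken from the spleen of each genotype by magnetic sorting. The labels number 3 mice per group, but whether their RNA was pooled, the dose of TNF and the part of Steap4 that was deleted are not given in the sources used here. The labels of arrays without TNF state no culture time, so an effect of TNF and an effect of time in culture cannot be told apart.

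TNF binds receptors on the macrophage surface, which recruit TRAF and cIAP adaptors and free NF-kB from its inhibitors. NF-kB then enters the nucleus and drives genes for chemokines, cytokines and adhesion molecules, and also for its own inhibitors, which end the signal. Macrophages meeting TNF are known to make more interleukin 1, to change their surface receptors and to shift arginine and energy metabolism.

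Each value below is a scaled signal, the processed intensity of a probe divided by the 75th percentile of its array, and each log2 difference is TNF minus no TNF. Signals of different probes are not compared with each other. A gene was called higher or lower when its log2 difference reached 1 in size (2-fold) and its probe was well above background on the brighter array. If the dimmer reading failed that background mark, the difference is a bound and is written "at least". With 1 array a side there was no replicate, no test and no error between mice, so sizes only are given. The scatter between repeated spots within an array was small beside the 2-fold rule. Over 278 probes spotted repeatedly, the median SD of a single-spot log2 difference was 0.096, and its 95th percentile was 0.31. This SD leaves out any error between arrays.

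The 75th percentile signal was 410 on the KO array without TNF and 338 on the KO array with TNF, within the range of 224 to 490 over all 6 arrays, and 56.6% to 62.2% of probes were well above background. The 14 macrophage markers (Adgre1, Csf1r and Cd68 among them) were all well above background on both KO arrays, and their summed scaled signal was 1720 without and 1665 with TNF. Markers of other cells were also present. The summed signal of 12 mature neutrophil markers was 456 without and 505 with TNF in KO macrophages, 177 and 249 in WT macrophages, and 2239 and 2779 on the WT and KO neutrophil arrays. The 8 spike-in probes, RNA added in fixed amounts, had a mean log2 difference of 0.30 after scaling in KO and 0.04 in WT. In KO they ranged from -0.70 to 0.52, with 7 of the 8 above 0, so the mean is an uncertain guide. Scaling to them instead would lower every KO log2 difference by 0.30, so an increase given below as under 1.30 (2.46-fold) would no longer be called. With normexp, another background correction, 50 of the 242 called genes followed here fell short of the rule.

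Of 24049 genes tested in KO macrophages, 1065 (4.43%) were higher and 892 (3.71%) lower with TNF, so that 8.14% were called in either direction. Every count of a KO list given below is to be read beside these shares of 4.43% and 3.71%. The median log2 difference of all genes tested was 0.03, and 5% of them lay below -0.87 and 5% above 0.94. At 4-fold the counts were 269 higher and 182 lower, and at 16-fold 38 higher and 10 lower. Of the called genes 1605 were measured on both arrays and 352 were bounds. Higher genes made up 54.4% of the calls, a share that became 26.9% (633 higher, 1717 lower) when arrays were scaled to the spike-ins. Among the called genes, 429 had a further probe above background, and 513 of these 579 other probes (88.6%) went the same way, while 350 (60.4%) were also past 2-fold.

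**Figure D1:**
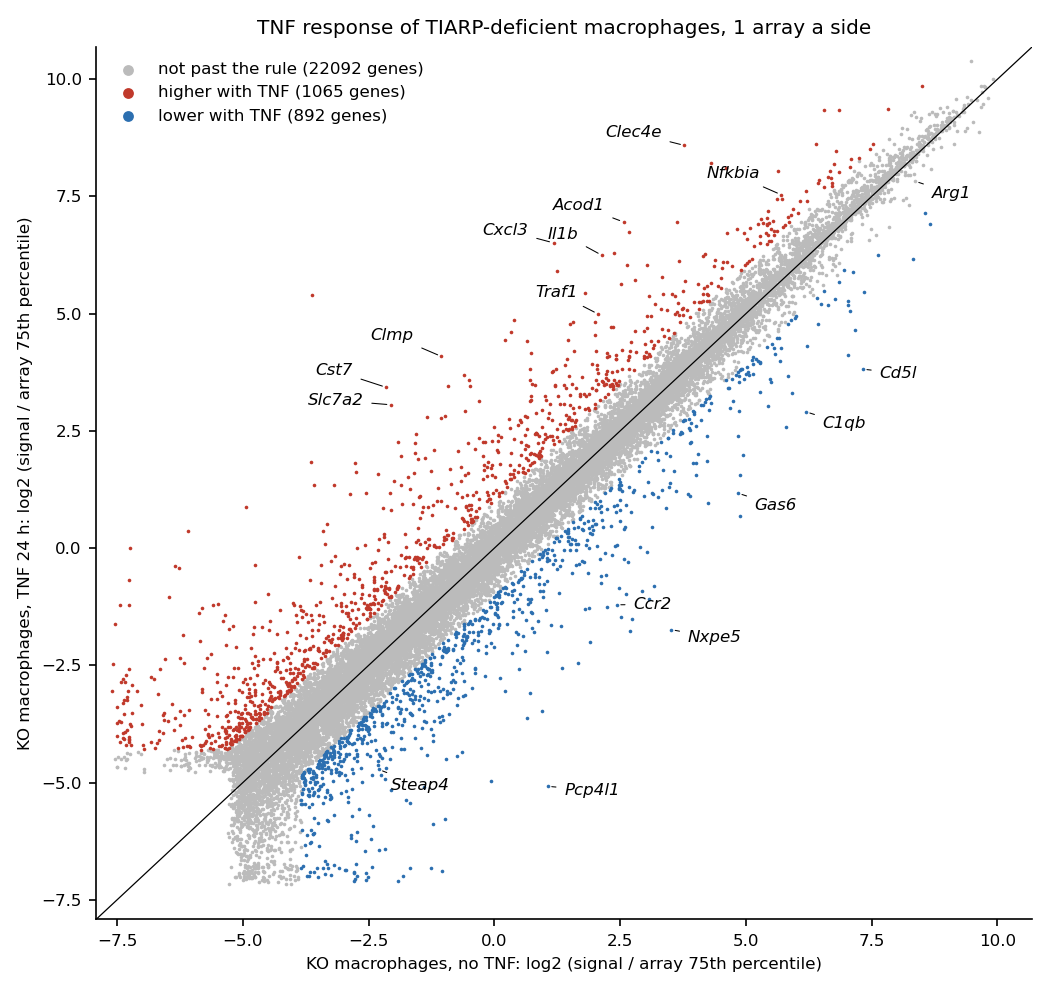
Scaled signal of each of the 24049 genes tested in KO macrophages, on log2 axes, without TNF (horizontal) and with TNF (vertical), 1 array each. The line marks equal signal; 1065 genes called higher lie above it and 892 called lower lie below it, with Cst7, Cxcl3 and Clmp among the farthest above and Nxpe5 and Pcp4l1 among the farthest below.

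Steap4, the targeted gene, gave a scaled signal of 0.203 in KO macrophages without TNF and 0.0379 with TNF, where it was not well above background. The same probe read 0.357 and 0.114 in WT macrophages without and with TNF, and 0.211 and 0.161 in WT and KO neutrophils. KO signals were thus lower than WT in each condition, but the probe was well above background on 2 of the 3 KO arrays. It lies at chr5:7981239-7981298 (mm9), and since the deleted part is not known here, it does not check the genotype. With TNF the KO signal was at least 5.35-fold lower (log2 -2.42), and the WT signal was also lower (log2 -1.65). With normexp the KO difference was -0.77, short of the 2-fold rule. Of the 18 iron and STEAP genes tested, 2 were higher and 4 lower, Steap4 included. The iron exporter Slc40a1 was lower by a log2 difference of -1.19, the metal importer Slc39a8 by -1.12 and the haemoglobin scavenger receptor Cd163 by -1.05. Haptoglobin (Hp), which binds free haemoglobin, was 6.98-fold higher, from 93.4 to 652, and Lcn2, which binds bacterial iron carriers, was 2.23-fold higher. Steap1, Steap2 and Steap3 had log2 differences of -0.12, -0.27 and -0.06.

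The rankings of brighter genes and of bounds below took approved-style symbols only, which leaves out clone, predicted-gene and coordinate names. Among such brighter genes, KO macrophages had their largest increases in Cst7, Cxcl3, Clmp, Slc7a2 and Clec4e. Cst7, which encodes the cathepsin inhibitor cystatin F, went from 0.225 to 10.8, a 47.7-fold difference. Cxcl3, a neutrophil-attracting chemokine, went from 2.26 to 91.1 (40.4-fold), and Clmp, an adhesion molecule of cell junctions, from 0.482 to 17 (35.2-fold). Each of these was low without TNF and bright with it, on both WT and KO arrays. Slc7a2, a carrier of arginine, was 34.6-fold higher, and Clec4e (Mincle), a lectin that senses microbial glycolipids, 28.1-fold higher, from 13.7 to 385. Next came the stefin Csta2 (25.4-fold), the fatty acid receptor Gpr84 (22.3-fold), Acod1, the enzyme that makes itaconate (20.9-fold), and Ly6f (20.8-fold). Olr1, a receptor of oxidised LDL, Inhba, a subunit of activins, and Stfa3, another stefin, lay between 18.8-fold and 19.8-fold. The formyl peptide receptor genes Fpr-rs3 and Fpr-rs6 were 18.3-fold and 17-fold higher. In WT macrophages the log2 differences of the 15 genes with the largest KO increases were between 3.52 (Inhba) and 6.96 (Cst7).

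A long noncoding RNA region had the largest measured difference of all 24049 genes, and Orm1 the largest after Cst7; both were picked out after their values were seen. The region is chr17:84397891-84412748 (mm9, plus strand), named by the array design as a lincRNA. Its signal was 0.0809 without and 42.3 with TNF in KO macrophages (523-fold), and 0.0708 and 45.6 in WT macrophages (644-fold). On the neutrophil arrays it was 0.0131 and 0.0129, not well above background. Its 2 other probes had KO log2 differences of 7.49 and 9.05, beside 9.03 for the probe used. Orm1, an acute phase protein, went from 0.0796 to 3.57 in KO macrophages (44.8-fold) and was 35.7-fold higher in WT. Over all lincRNA regions, 130 of 3433 tested were higher and 74 lower, beside 4.43% and 3.71% of all genes tested.

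Nxpe5 had the largest decrease among brighter genes, from 11.4 to 0.299 (38.1-fold lower), with a log2 difference of -5.25 in KO and -5.28 in WT macrophages. Mamdc2 (22-fold lower), Ifitm6 (19-fold), the carbonyl reductase Cbr2 (18.4-fold) and Bex1 (17.9-fold) followed. Ccr2, the receptor by which monocytes are recruited, went from 5.39 to 0.432 (12.5-fold lower). Gas6, a bridge between dying cells and the receptors that clear them, was 12.7-fold lower, Cd5l, a secreted macrophage protein, 11.4-fold lower, from 160 to 14.1, and C1qb, a chain of complement C1q, 9.75-fold lower. Plppr3, Slc46a3 and Ednrb, an endothelin receptor, were between 14.3-fold and 15.8-fold lower, although the other probe of Plppr3 had a log2 difference of -1.35 beside -3.98. All of these were lower in WT macrophages too.

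Globin genes were a further group among the largest decreases. Hbb-bt was 15-fold lower in KO (3.74 to 0.25), Hba-a1 12.1-fold lower (6.12 to 0.507) and Hba-a2 10-fold lower (29.5 to 2.95). Hbb-bs was at least 14.4-fold lower. In WT macrophages their log2 differences were smaller, -0.99 for Hbb-bt, -0.86 for Hba-a1 and -0.92 for Hbb-bs, and Hba-a2 went from 10.2 to 5.09. Globin RNA marks red blood cells, and 3 of the 7 erythroid markers on the array (Ahsp and Klf1 among them) failed the background mark in KO macrophages without TNF. Summed over the list, the erythroid signal was 6.38 without and 0.691 with TNF in KO, 2.57 and 1.44 in WT, and 337 and 828 on the WT and KO neutrophil arrays. Most of each sum was the signal of Hba-a1, already given above. In bulk RNA, fewer cells of a type and less RNA per cell cannot be told apart, and the part of red cells in these values was not tested.

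**Figure D2:**
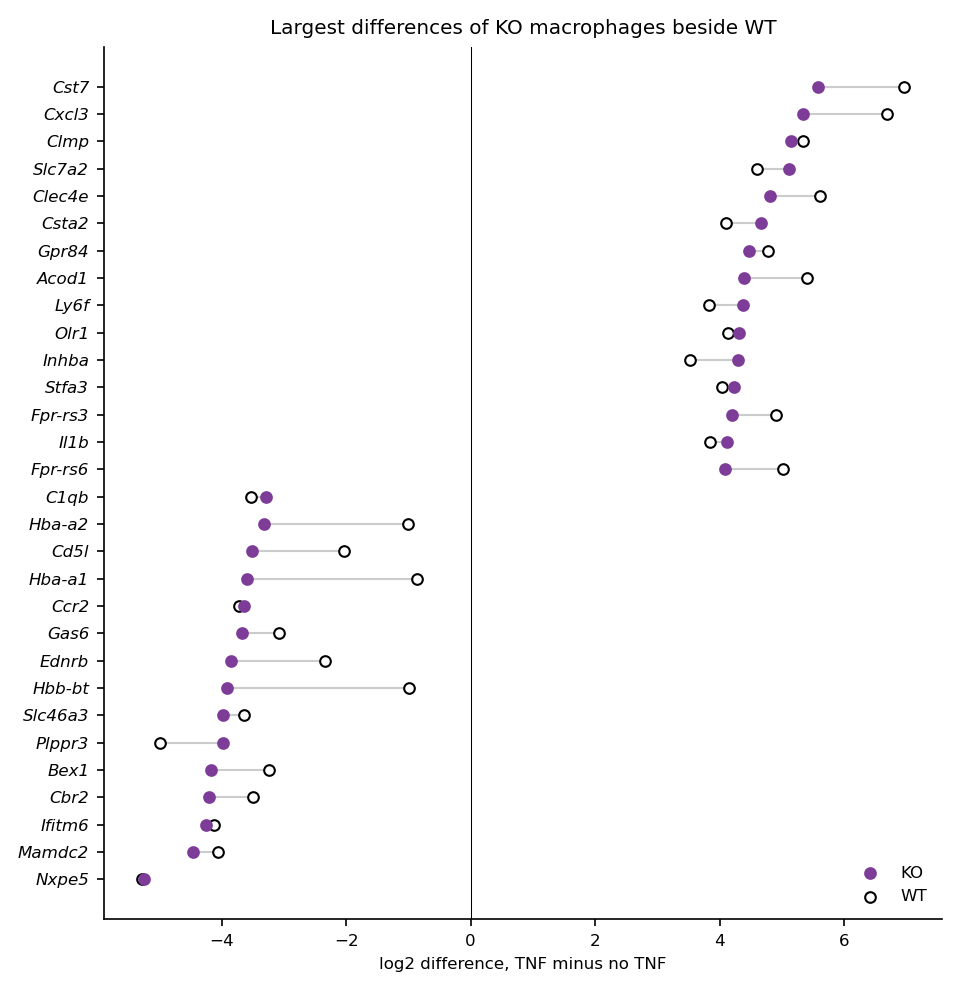
Log2 difference (TNF minus no TNF) of the 15 brighter genes with the largest increases and the 15 with the largest decreases in KO macrophages, for KO (filled) and WT (open), 1 array a side. The genes were chosen by the KO values among approved-style symbols. Cst7 lies at 5.58 in KO and 6.96 in WT, and Hbb-bt at -3.91 and -0.99.

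Bounds marked genes whose probe was well above background on 1 array of the pair only. For 14 genes called by a bound, Aqp5 among them, another probe was above background on the dimmer array. The largest lower bound of a decrease was that of Pcp4l1, at least 59.7-fold lower (2.08 to 0.0295), and WT macrophages also had less of it (log2 -4.98). Aqp5, a water channel, was at least 13.9-fold lower on its brightest probe, while its other probe had a log2 difference of -1.87. Lrrn4 (at least 11.6-fold), Nup62cl (12.3-fold) and Sebox (11.9-fold) were the other large ones. Lrrn4 was lower in WT macrophages too. Nup62cl and Sebox were well above background on the KO array without TNF only, so their values rest on 1 array. Among increases, Gp6 (at least 17-fold), Igf2bp1 (17-fold) and Slc1a2 (19.3-fold) were higher in WT macrophages as well. Tas2r110 (at least 39.2-fold), Dlx6os1 (24.7-fold) and Rnf186 (17-fold) were well above background on no other macrophage array, so their values rest on 1 array.

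The NF-kB list held 22 genes, of which 8 were higher and none lower in KO macrophages, beside 4.43% and 3.71% of all genes tested, and the median log2 difference was 0.48 against 0.03. Members past the rule included inhibitors and subunits. Nfkbie (IkB epsilon) went from 4.02 to 28.1 (6.99-fold), Tnip1, a partner of the inhibitor A20, from 28.2 to 112 (3.96-fold) and Nfkbia (IkB alpha) from 52 to 186 (3.57-fold). Tnfaip3, which encodes A20 itself, had a log2 difference of 1.38 and Tnip3 of 1.17. Of the subunits, Nfkb2 (3.9-fold) and Relb (log2 1.53), which pair in the noncanonical pathway, were higher, while Nfkb1, Rela and Rel had log2 differences of 0.51, 0.41 and 0.26 and did not reach the rule. The 2 other probes of Relb had -0.38 and 1.48. Ikbkg, the regulatory subunit of the IkB kinase, was just past the rule at 1.02. WT macrophages had 7 of 22 higher, with a median of 0.72.

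Promoter letters were compared with these values, because NF-kB binds a known motif. RefSeq promoters (GRCm38.p6, 250 bases before to 50 after a start) were found for 12658 of the 24049 genes tested. The NF-kB letters searched were GGG and TTCC with any 3 bases between, on either strand. They were in 59 of 611 promoter-matched genes called higher (9.66%), in 36 of 544 called lower (6.62%) and in 7.27% of all genes tested. Among genes at least 4-fold higher the share was 12.4% (21 of 170), and among those at least 4-fold lower it was 5.65%. Over every gene with a RefSeq promoter it was 6.31%. A second motif, TGANTCA of the AP-1 factors, was in 12.1% of genes higher, 10.3% of genes lower and 7.09% of all tested, so both directions were above all tested. At 4-fold its shares were 18.2% of genes higher and 13.7% of genes lower, and over every gene with a RefSeq promoter 8.97%. The letters of the interferon-responsive element were GAAA and GAAA with any 2 bases between. They were in 4.75% of genes higher, 5.70% of genes lower and 3.89% of all tested, and at 4-fold in 3.53% and 6.45%. In the NF-kB list 9 of 17 genes with a promoter held the NF-kB letters, among them 5 of the 7 that were higher (Nfkb2, Nfkbia, Nfkbie, Tnfaip3 and Tnip1). Named genes called lower held the NF-kB letters too, among them Steap4, Ednrb, C3ar1, Lgmn and Slc39a8. A match is a run of letters, not a measured binding site. Stretches from the promoters of Nfkbia, Nfkbie and Tnip1 show where the letters lie in genes called higher. That of the inhibitor gene Tnfaip3 is not shown. The match is in capitals, and each stretch is written 5′ to 3′ in the direction of the gene.
Nfkbia, chr12:55492648-55492696, minus strand: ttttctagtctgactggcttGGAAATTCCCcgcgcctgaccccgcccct
Nfkbie, chr17:45555574-45555623, plus strand: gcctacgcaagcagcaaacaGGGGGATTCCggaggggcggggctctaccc
Tnip1, chr11:54962967-54963018, minus strand: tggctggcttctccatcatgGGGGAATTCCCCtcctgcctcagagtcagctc

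Of 23 TNF receptors and adaptors, 3 were higher and none lower, beside 4.43% and 3.71% of all genes tested. Traf1, an adaptor induced by NF-kB, went from 4.17 to 31.8 (7.64-fold), Traf5 from 1.57 to 5.8 (3.68-fold) and Birc3, the ubiquitin ligase cIAP2, from 1.08 to 3.45 (3.2-fold). The receptors themselves, Tnfrsf1a and Tnfrsf1b, had log2 differences of -0.49 and 0.60. The adaptors Traf2 and Traf3 were just short of the rule at 0.99 and 0.90, and the median of the list was 0.16. Of 20 regulators of apoptosis, 4 were higher and 1 lower. Cflar (c-FLIP), which blocks caspase 8, was 4.8-fold higher (log2 2.26) on its brightest probe, while its 3 other probes ranged from 0.33 to 1.34. The death receptor Fas was 2.92-fold higher. Casp4, an inflammatory caspase, was just past the rule at 1.03 and fell below it under quantile scaling. Bcl2l11 (Bim), a promoter of cell death, was 2.39-fold lower, and its other probe had a log2 difference of -2.17. WT macrophages gave the same counts of 3 of 23 and of 4 higher and 1 lower of 20. The lower gene in WT was Bmf (log2 -1.28, and -0.75 in KO), while Bcl2l11 had -0.96 there.

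**Figure D3:**
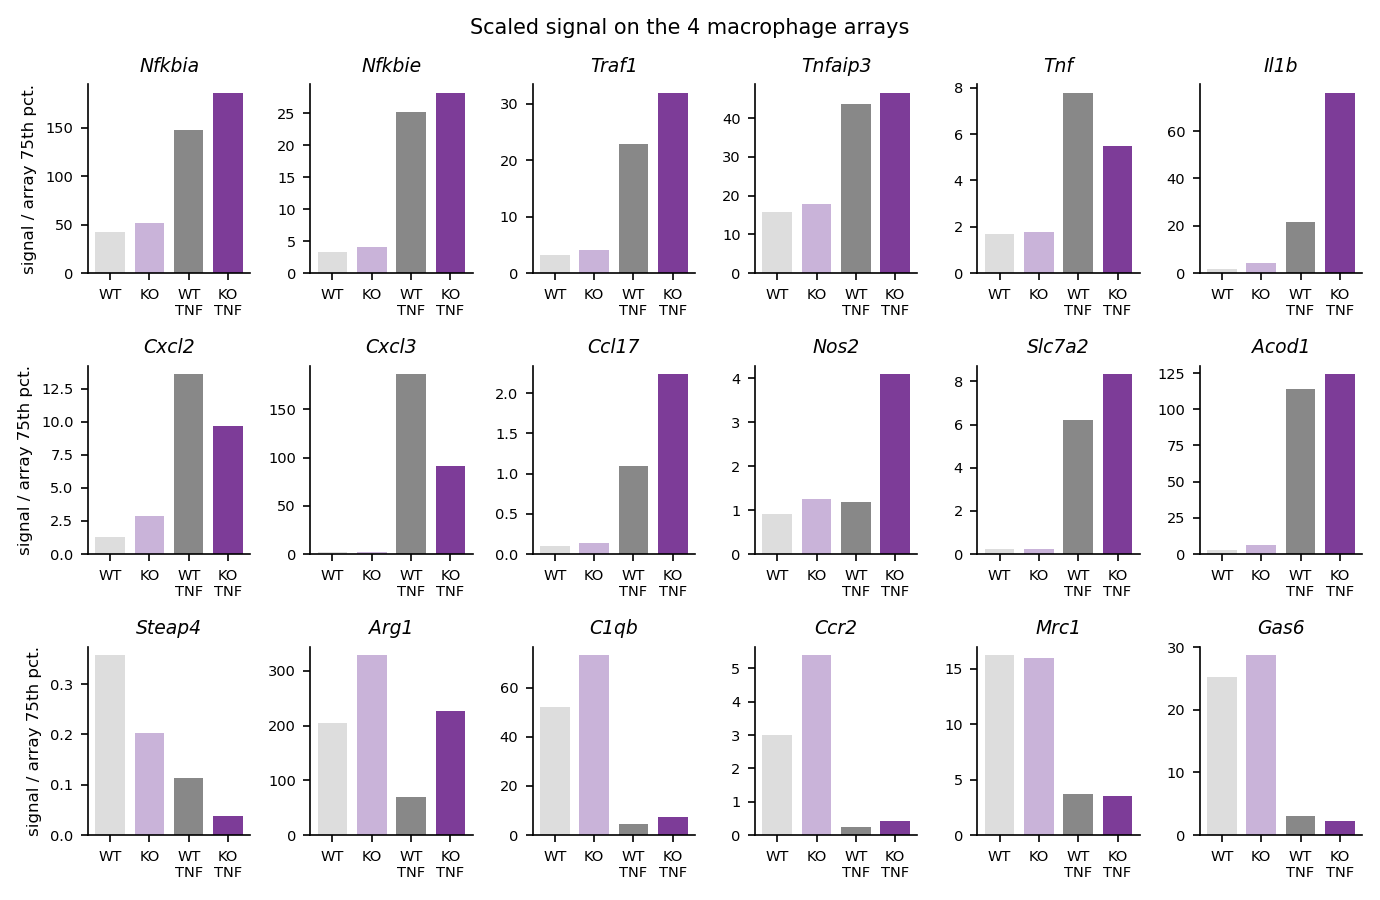
Scaled signal of 18 genes on the 4 macrophage arrays, each panel with its own axis from 0, WT in grey and KO in purple, 1 array a bar. Il1b reaches 75.9 in KO and 21.4 in WT macrophages with TNF, while Cxcl3 reaches 91.1 and 186.

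Cytokines were the list with the most higher genes, 12 of 30 tested, with 2 lower and a median of 0.78. Il1b went from 4.39 to 75.9 in KO macrophages (17.3-fold) and from 1.5 to 21.4 in WT (log2 4.11 and 3.84). Its KO signal was above the WT signal both without and with TNF. On the WT and KO neutrophil arrays Il1b read 276 and 386, and the summed neutrophil markers were also higher in KO than in WT macrophages. The part of neutrophils in the Il1b values was not tested. Tnf itself went from 1.77 to 5.49 (3.11-fold) in KO and from 1.67 to 7.76 in WT. Il1a (log2 2.64) and the receptor antagonist Il1rn (2.24), which blocks interleukin 1, were both higher. Il12a, a subunit of interleukin 12, was at least 7.75-fold higher, and the other subunit, Il12b, 4.05-fold higher from a signal of 0.0377. Other members past the rule were the activin subunit Inhba (19.5-fold), the TNF family ligands Tnfsf9 (log2 1.97) and Tnfsf15 (1.01), the growth factors Hbegf (1.82) and Pdgfb (1.32), and Csf2 (GM-CSF) at 1.56 as a bound. Il6 had a log2 difference of 0.53 in KO (1.37 to 1.97) and 0.27 in WT, and did not reach the rule. Osteopontin (Spp1) was 3.67-fold lower, and Il10, an anti-inflammatory cytokine, at least 2.01-fold lower at a signal of 0.0702 without TNF. The Il10 call was lost under quantile scaling and with normexp, and that of Csf2 with normexp. WT macrophages had 14 higher and 2 lower of 30.

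The receptors and feedback inhibitors of cytokine signalling had 7 higher and 2 lower of 29. Cish (5.27-fold) and Socs1 (3.21-fold), both inhibitors of JAK-STAT signalling, and Il2rg, the shared gamma chain (3.05-fold), were the largest. Csf2rb (2.3-fold), Csf2rb2 and Socs2 were also past the rule. Il1rap, a part of the interleukin 1 receptor, was at 1.12 on its brightest probe, but its 2 other probes had -0.60 and -0.22. The decoy receptor Il1r2 and the interleukin 6 receptor Il6ra were 2.22-fold and 2.14-fold lower.

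Chemokines that attract neutrophils carry an ELR motif before their CXC cysteines, and 2 of the 5 tested were higher in KO macrophages. Cxcl2 went from 2.84 to 9.66 (3.4-fold) and Cxcl3 from 2.26 to 91.1, as given above. In WT macrophages both had larger differences, Cxcl2 from 1.26 to 13.6 (log2 3.42 against 1.77 in KO) and Cxcl3 from 1.8 to 186 (6.69 against 5.33). For Cxcl2 the KO signal was above WT without TNF and below it with TNF. Cxcl1 went from 6.89 to 9.18 in KO (log2 0.41) and from 3.81 to 7.8 in WT (1.03), so it reached the rule in WT only, and whether the 2 responses differ could not be tested with 1 array a group. Among the other 8 CXC chemokines, Cxcl10, an attractant of T cells, was 4.66-fold higher, Cxcl9 at least 2.73-fold higher, and Cxcl12, which holds cells in tissue, 2.04-fold lower. Cxcl9 lost the call with normexp, and Cxcl12 with that and with quantile scaling. The promoters of Cxcl1, Cxcl2, Cxcl3 and Cxcl10 held the NF-kB letters, and stretches from the 3 called higher are given with the matches in capitals.
Cxcl2, chr5:90903782-90903850, plus strand: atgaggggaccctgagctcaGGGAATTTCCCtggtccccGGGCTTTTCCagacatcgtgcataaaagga
Cxcl3, chr5:90786008-90786080, plus strand: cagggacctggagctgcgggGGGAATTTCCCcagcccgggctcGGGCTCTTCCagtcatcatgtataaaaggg
Cxcl10, chr5:92348964-92349068, minus strand: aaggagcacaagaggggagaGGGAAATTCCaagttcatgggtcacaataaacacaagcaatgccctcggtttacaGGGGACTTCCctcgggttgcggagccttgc

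Of 14 CC chemokines tested, 4 were higher and 2 lower, with a median of 0.49. Ccl17 and Ccl22, ligands of CCR4 on T cells, went from 0.136 to 2.23 (16.4-fold) and from 0.0246 to 0.373 (at least 14.7-fold). Ccl9, a chemokine of myeloid cells, was 5.31-fold higher, from 49.5 to 263. Ccl5 had a log2 difference of 1.07 in KO and 0.26 in WT, and its KO call was lost under quantile scaling. Ccl24, an attractant of eosinophils, was 2.79-fold lower in KO (5.67 to 2.04), while WT macrophages read 1.76 and 1.51. Ccl12 was at least 3.71-fold lower at dim signals. Ccl2, an attractant of monocytes, Ccl3 and Ccl4 had log2 differences of 0.26, 0.97 and 0.51.

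Receptors for attractants split in both directions, with 4 higher and 5 lower of 19 and a median of 0.03. Fpr2 and Fpr1, which sense formyl peptides of bacteria, were 16.8-fold and 4.98-fold higher, Fpr1 going from 8.37 to 41.7. Ccr3 and Cmklr1 were also higher, at log2 1.51 and 1.12. Lower were Ccr2 (12.5-fold), Cxcr3 (4.59-fold), and the complement receptors C3ar1 (4.46-fold) and C5ar1 (log2 -1.26), among others. The receptors of the ELR chemokines, Cxcr1 and Cxcr2, had log2 differences of -0.85 and -0.80 and did not reach the rule.

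**Figure D4:**
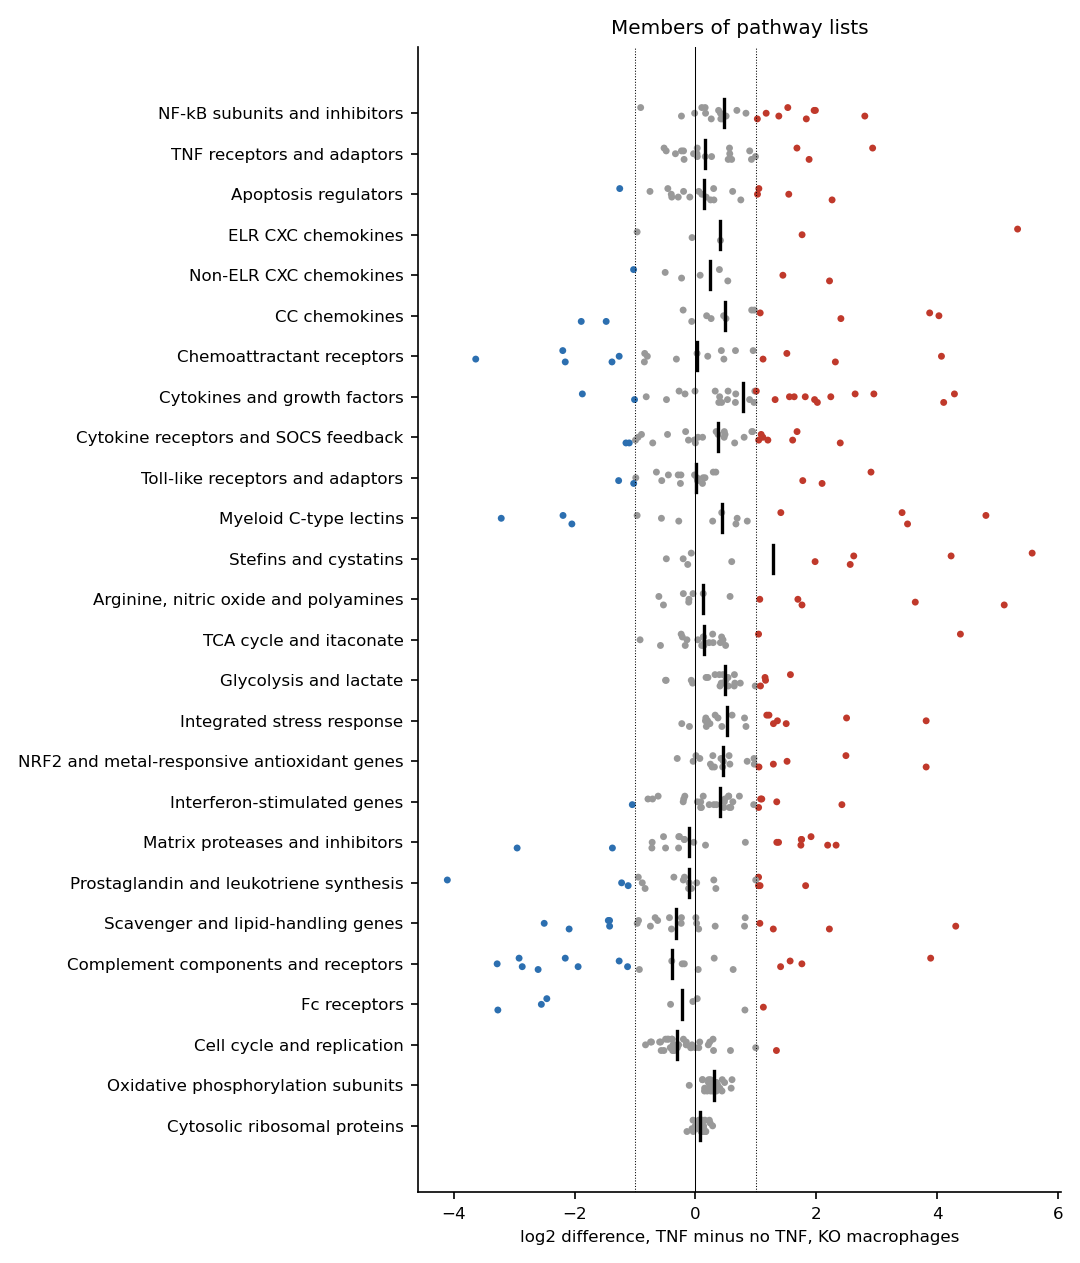
Log2 difference (TNF minus no TNF) in KO macrophages for the tested members of 26 pathway lists, 1 point a gene, red for called higher, blue for called lower, grey for neither, black bars for medians, dotted lines at 2-fold. Cytokines have 12 red points, complement has 8 blue points, and all ribosomal and oxidative phosphorylation genes lie inside the dotted lines.

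Sensors of microbes followed the same split by gene. Tlr2, the receptor of bacterial lipoproteins, went from 6.98 to 52.3 (7.5-fold) and Cd14, the co-receptor of lipopolysaccharide, from 24.5 to 105 (4.28-fold). Irak3, an inhibitor of these pathways, was 3.43-fold higher, while Tlr4 and Myd88 had log2 differences of -0.29 and 0.13. Tlr8 was 2.42-fold lower and Tlr5 at least 2.03-fold lower, both short of the rule with normexp. The Tlr2 promoter held the NF-kB letters, shown in capitals because it was the receptor with the largest difference of its list.
Tlr2, chr3:83841752-83841801, minus strand: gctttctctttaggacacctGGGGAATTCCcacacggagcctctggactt

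Of 15 C-type lectins tested, 4 were higher and 3 lower. Clec4e (28.1-fold), Clec4n (Dectin-2, 11.4-fold), Clec4b1 (log2 3.42) and Clec7a (Dectin-1, log2 1.41) were higher, although the other probe of Clec4b1 had 1.02. Clec10a, a galactose lectin, went from 55.6 to 5.98 (9.3-fold lower) and the mannose receptor Mrc1 from 16 to 3.5 (4.58-fold lower). Cd209a was at least 4.13-fold lower at dim signals. In the inflammasome list 4 of 13 were higher, Nlrp3 by 2.78-fold, Nod2 by 2.3-fold, Panx1 by 2.21-fold and Nlrc4 by a log2 difference of 1.12, while Casp1 and Gsdmd had 0.19 and 0.52.

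Stefins and cystatins, inhibitors of cysteine proteases, had 5 higher and none lower of 10, and the highest list median, 1.29 (2.16 in WT). Cst7, Stfa3, Cstdc4 (6.15-fold), Cstdc5 (log2 2.56) and Stfa2l1 (1.98) were the 5. Csta2, another stefin, given above, was not on the list. Stefin genes are very alike in sequence, so a probe may read more than its named gene. Cst3 and Cstb, expressed in most cells, had log2 differences of -0.13 and 0.60. Their targets, the cathepsins, are lysosomal, and 1 of 28 lysosome genes was called, the protease Lgmn, from 402 to 121 (3.34-fold lower).

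Arginine metabolism had 5 higher and none lower of 13. Slc7a2, which brings arginine into the cell, went from 0.24 to 8.32, Ass1, which remakes arginine from citrulline, from 3.48 to 43.4 (12.5-fold), and Gch1, which supplies the cofactor of nitric oxide synthase, from 20.9 to 71.1 (3.4-fold). Nos2, the inducible nitric oxide synthase, went from 1.26 to 4.08 in KO (3.24-fold, log2 1.70) and from 0.907 to 1.18 in WT (0.38). Arg1, which competes with it for arginine, went from 328 to 227 in KO (log2 -0.53) and from 204 to 69.6 in WT (-1.55). Arg2 was just past the rule in KO at 1.06.

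Of 24 genes of glycolysis, 4 were higher and none lower, beside 4.43% and 3.71% of all genes tested, with a median of 0.49, namely the glucose carriers Slc2a6 (2.97-fold) and Slc2a1 (log2 1.08), the lactate carrier Slc16a3 (2.22-fold) and the kinase Pgk1 (2.23-fold). The files map the Pgk1 probe to chromosome 3, while RefSeq places the gene on X, and no other probe of it was on the array. In the citric acid cycle 2 of 21 were higher, Acod1 from 5.92 to 124 and Mdh2 from 135 to 279, the latter lost under quantile scaling. The 30 oxidative phosphorylation genes ranged from -0.10 to 0.61 with none called, and the 31 ribosomal protein genes from -0.14 to 0.28 with none called.

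Genes of the integrated stress response, which adapts cells to amino acid shortage and misfolded protein, had 7 higher and none lower of 20 in KO, with a median of 0.52, and 2 higher in WT, with a median of 0.26. Slc7a11, the cystine carrier, went from 0.334 to 4.71 (14.1-fold) and was similar in WT (log2 3.82 and 3.64). Chac1, which breaks down glutathione, went from 0.765 to 4.34 in KO (log2 2.50) and from 0.647 to 1.21 in WT (0.90). Nupr1, a stress-induced nuclear protein, went from 6.47 to 18.3 in KO and from 5.13 to 9.31 in WT. Trib3, an inhibitor of ATF4, had 1.29 in KO and 0.18 in WT, Ddit4 1.36 and 0.72, and Asns, the asparagine synthetase, 1.18 and 0.72. Atf4 and Ddit3, the factors of the pathway, had KO differences of 0.24 and -0.10. Mthfd2, an enzyme of folate metabolism, had 1.22 and 1.08. Under spike-in scaling 4 of the 7 stayed past the rule. The difference between genotypes was not tested.

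Antioxidant genes had 5 higher and none lower of 21 in KO and 9 in WT. Sod2, the mitochondrial superoxide dismutase, went from 116 to 651 (5.62-fold), Gsta3 from 3.42 to 9.77 (2.86-fold), Hmox1, which degrades haem, had log2 1.29 and Txnrd1 1.05, the last of these lost under quantile scaling. Among NADPH oxidase subunits Cybb was 3.42-fold higher and Ncf4 2.02-fold higher, of 6, and Ncf4 lost the call under quantile scaling. Interferon-stimulated genes had 5 higher and 1 lower of 30 in KO, with a median of 0.41, and 1 higher and 2 lower in WT, with a median of -0.01. Gbp2, a guanylate-binding protein that attacks vacuoles, was 5.37-fold higher in KO, Isg15 2.54-fold and Gbp3 2.14-fold, while Mx1 was 2.07-fold lower. In WT macrophages the log2 differences were 2.37 for Gbp2, 0.86 for Isg15, 0.77 for Gbp3 and -1.88 for Mx1. Zbp1 and Bst2 were the other 2, and both lost the call under quantile scaling. Under spike-in scaling Gbp3, Zbp1 and Bst2 lost it. Irf7 and Irf9 had KO differences of 0.23 and 0.09. Whether the interferon-stimulated genes differ between genotypes was not tested.

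Complement held the most lower genes of any list, 8 of 19, with 4 higher and a median of -0.39. The chains of C1q, which start the classical pathway, were lower together, C1qb from 73.1 to 7.5, C1qc from 131 to 17.3 (7.58-fold) and C1qa from 60.6 to 9.95 (6.09-fold). The complement receptor Vsig4 was 7.31-fold lower, and C4b had log2 -1.12. Cfb, the protease of the alternative pathway, went the other way, from 19.8 to 295 (14.9-fold), with C3, on which all pathways meet, 3.39-fold higher, and the proteases C1s1 (2.96-fold) and C1ra (log2 1.41). WT macrophages had 7 lower and 3 higher. Of 8 Fc receptors, which bind antibody, Fcgr4 (9.67-fold), Fcgrt (5.87-fold) and Fcgr1 (5.51-fold) were lower and the inhibitory Fcgr2b 2.18-fold higher, the last lost under quantile scaling. Fcgr1 went from 16.2 to 2.94 in KO and from 11.5 to 0.665 in WT.

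Genes of lipid uptake and storage had 5 lower and 4 higher of 24. Fabp4, a fatty acid carrier, went from 143 to 25.3 (5.68-fold lower), its regulator Pparg from 11.2 to 2.62 (4.27-fold lower) and the scavenger receptor Cd36 from 98.7 to 36.3 (2.72-fold lower). Plin2, which coats lipid droplets, and Mylip both had log2 -1.42. Olr1 (19.8-fold), Ch25h, which makes 25-hydroxycholesterol (4.65-fold), and the cholesterol exporter Abca1 (2.44-fold) were higher. Cholesterol synthesis had 2 of 23 higher, Mvd, an enzyme of the mevalonate pathway, by 4.53-fold. Among prostaglandin genes the synthase of prostaglandin D2, Hpgds, was 17.3-fold lower, from 3.15 to 0.183, and that of prostaglandin E2, Ptges, 3.54-fold higher, from 49 to 174, although its other probe had a log2 difference of 5.29. Ptgs2 (cyclooxygenase-2) and Pla2g4a, which act before them, were just past the rule at 1.07 and 1.04. In all 4 of 20 were higher and 3 lower.

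Matrix proteases and their inhibitors had 8 higher and 2 lower of 22. Mmp9, a gelatinase also stored by neutrophils, went from 2.81 to 12.8 in KO (log2 2.19) and from 1.29 to 19.1 in WT (3.89). Mmp2, the other gelatinase, went from 0.0852 to 0.428 in KO (2.33) and from 0.329 to 0.51 in WT (0.63). Serpinb2 (3.77-fold), Mmp25, Timp1, Mmp3 and Mmp14 were also higher, and Mmp27 (7.75-fold) and Timp2 (2.6-fold) lower. Of 21 adhesion genes, Icam1 (5.59-fold), Vcam1 (2.83-fold), both ligands of leukocyte integrins, and Itgax (2.19-fold) were higher and Itga6 (2.75-fold) lower, although the other probe of Itga6 had a log2 difference of -0.13. The call of Itga6 was lost when the median of all its probes was used.

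In antigen presentation by class I, 1 of 14 genes was higher, beside 4.43% of all genes tested, the proteasome activator Psme2 (2.3-fold), whose 2 other probes had log2 differences of -0.92 and 1.23. In class II and costimulation 3 of 19 were higher, the inhibitory ligands Cd274 (PD-L1, 2.4-fold) and Pdcd1lg2 (PD-L2, 2.34-fold) and Tnfsf4 (OX40 ligand) at least 2.67-fold, while H2-Aa, H2-Eb1 and Cd74 had log2 differences of -0.15, -0.11 and -0.31. Tnfsf4 reached 0.0678 in KO and 0.352 in WT macrophages with TNF and was not well above background without it.

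Of 12 genes of classical activation, 7 were higher and none lower (median 1.07, and 0.72 in WT), and of 17 of alternative activation 4 were higher and 4 lower. Nos2, Il12b, Fpr2, Gpr18, Cd38, Ptgs2 and Marco were the 7. Of these, Il12b, Gpr18 and Ptgs2 fell short of the rule with normexp, and Ptgs2, Marco and Cd38 under spike-in scaling. Marco also lost the call under quantile scaling and on removal of the intensity trend. The alternative genes that were higher included Ccl17 and Ccl22, and those that were lower Clec10a, Mrc1 and Ccl24. Among transcription factors of myeloid cells, Maf (6.5-fold), Pparg and Gata6 (3.39-fold), which maintain resident macrophages, were among the lower genes, while Ets2 (3.2-fold), Cebpe (2.7-fold), Hif1a (2.27-fold), Gfi1 (log2 1.11) and Bhlhe41 (1.02) were higher. Among immediate early factors, Fos (3.17-fold) and Zfp36 (2.37-fold) were lower and Maff (4.68-fold) higher, of 22. Cell cycle genes had 1 of 37 called, Tyms (2.53-fold higher), with a median of -0.31 in KO and 0.02 in WT. Of 17 heat shock genes 1 was called, Hspa1a (2.25-fold higher). Of 14 housekeeping genes 1 was called, Pgk1 on the probe mapped elsewhere, and Actb had a difference of 0.07.

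Marker lists showed where other cells or other macrophage states could enter these values. Of the 14 macrophage markers, 6 were lower (the 3 C1q chains, Fcgr1 and Mertk among them) and Cd14 higher, while Adgre1, Csf1r and Cd68 had log2 differences of 0.16, 0.47 and 0.11. Of the 11 markers of resident peritoneal macrophages, Cd5l, Vsig4, Gata6 and Selp were lower, and Timd4 (6.05-fold), Prg4 (2.38-fold) and Marco (2.09-fold) higher. Of 12 mature neutrophil markers 3 were higher (Trem3 by 7.35-fold, Mmp9 and Mxd1) and Il1r2 lower, whereas the defining genes S100a9 and Ly6g had -0.15 and -0.76. Of the granule genes of neutrophil precursors Camp was 23.8-fold higher, from 0.147 to 3.51, and Prtn3 9.58-fold lower, from 1.15 to 0.12. All 9 B cell markers tested lay between -0.77 and -0.13 with none called, and their sum was 21.2 without and 15.6 with TNF.

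Mesothelial and fibroblast genes were lower as a list, 6 of 11 with none higher and a median of -1.16 (4 of 11 and -0.78 in WT). Lrrn4, Krt19 (6.24-fold), Upk3b (at least 5.26-fold), Lum (log2 -2.19), Pdgfra (-1.28) and Col3a1 (-1.16) were the 6. Their summed signal was 154 without and 122 with TNF in KO, and 275 and 256 in WT macrophages. Lrrn4 and Upk3b were not well above background with TNF in KO. The part of these cells in the other results was not tested.

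**Figure D5:**
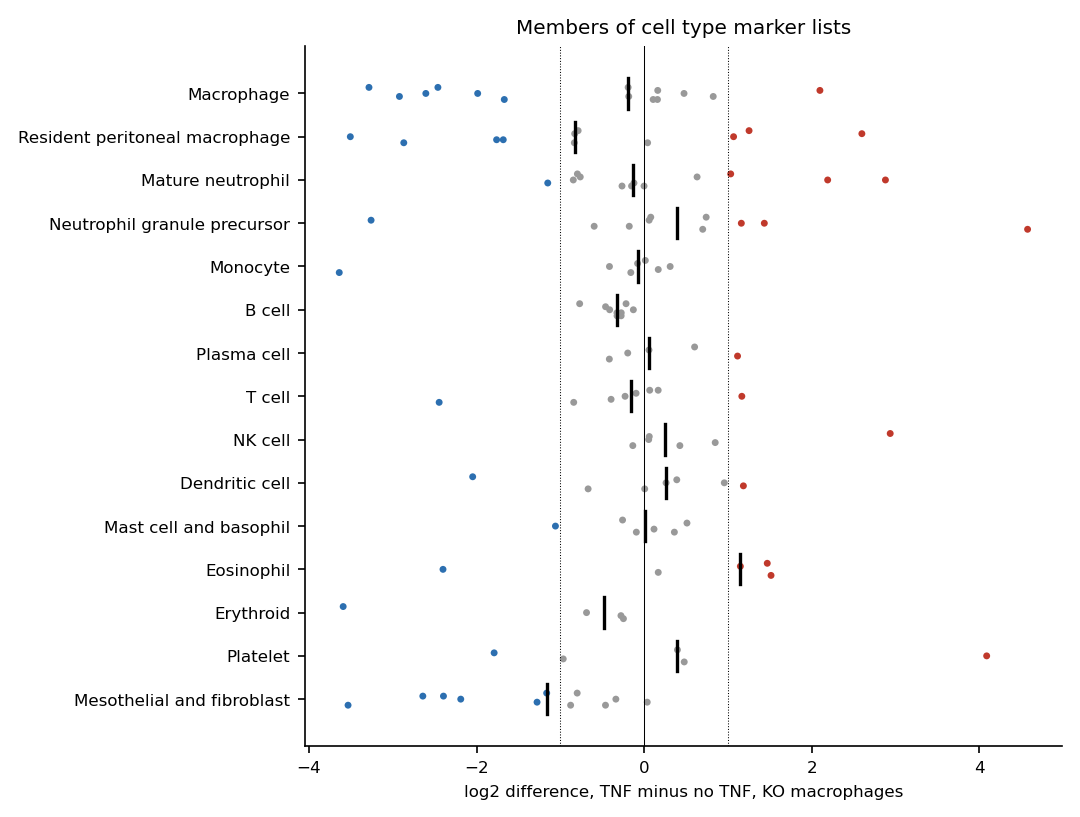
Log2 difference (TNF minus no TNF) in KO macrophages for the tested members of 15 cell type marker lists, 1 point a gene, red for called higher, blue for called lower, grey for neither, black bars for medians, dotted lines at 2-fold. The median of the mesothelial and fibroblast list is -1.16, and that of the macrophage list is -0.19.

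Beside WT macrophages, which share no array with the KO pair, most calls had the same sign. Over 23488 genes tested in both genotypes, 990 were higher in KO and 955 in WT, and 659 were shared (66.6% of the KO and 69.0% of the WT genes). For lower genes the counts were 872 and 1243, with 598 shared (68.6% and 48.1%). Of the 990 higher KO genes, 900 had the same sign in WT, and the medians were 1.42 in KO and 1.30 in WT. Over its own 24628 tested genes, WT had 4.4% higher and 5.96% lower, 10.4% in either direction. The opposite call was found for 14 of the higher and 1 of the lower KO genes.

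Among brighter genes well above background on all 4 macrophage arrays, Hal, Chil1 and Nrcam differed most between the KO and the WT response. Hal, which degrades histidine, went from 7.01 to 10.6 in KO (log2 0.60) and from 2.2 to 0.291 in WT (-2.91), although its other probe had a KO difference of 0.09. Chil1, a chitinase-like protein, went from 2.83 to 27.3 in KO (3.27) and from 0.501 to 0.442 in WT (-0.18). Its signal was 4.49 and 13.8 on the WT and KO neutrophil arrays. Pianp was the next, from 25.1 to 12.5 in KO (just short of the rule) and from 6.25 to 0.787 in WT (-2.99). In the other direction Nrcam, a cell adhesion molecule, went from 2.49 to 0.315 in KO (-2.98) and from 0.368 to 0.562 in WT (0.61), followed by Hbb-bt and Hba-a1. In all of them the KO signal without TNF was above that of WT. None of these differences could be tested with 1 array a group.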

How the data were processed

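Total RNA of 6 samples was labelled with Cy3 and hybridised to 6 single-colour Agilent arrays. Per the file headers, the authors quantified spots with Agilent Feature Extraction 10.7.3.1, and the deposited intensity is linear, with background subtracted, and not normalized between arrays. Probe positions are on mm9. No spot was saturated (0).

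Control and outlier spots (101 to 121 an array) were left out, log2 was taken and the 75th percentile of each array subtracted. Repeated spots were averaged to 55680 probes, and the probe with the highest mean over 6 arrays stood for each of 34740 genes. Names came from RefSeq (GRCm38.p6) by accession for 27234 probes, by symbol for 3576 and by synonym for 565. The files' own names were kept for 8054 probes, and 16251 were of lincRNA regions. Bounds used the higher of a probe's own signal and the lowest signal well above background on the dimmer array. The number of arrays limits the precision, and no p-value is given. The pathway and marker lists (40 and 15) held 875 genes, 867 of them on the array.

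Named were 10 genes of prior interest, the 15 largest increases and decreases among brighter genes, the 6 largest bounds, up to 3 per list and direction plus members needed for counts, and the 3 largest differences between genotypes in each direction. The largest increases, decreases, bounds and differences between genotypes were ranked among approved-style symbols only. Members and lists were chosen with earlier results of these data known. Alternatives were quantile, detected-probe median and spike-in scaling, removal of an intensity trend, normexp background correction with offset 50 (limma 3.58.1), other filters on dim probes, the median of a gene's probes, other size thresholds and outlier spots kept. The call rule was tested on simulated data. A few called members are counted but not reported here by name.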

Additional observations from a re-analysis of the deposited data

Results flagged for a closer look

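Among genes with an approved-style symbol, which leaves out clone and predicted-gene names, 4 were called higher with TNF in KO macrophages and lower in WT macrophages. The clone-named 4930517G19Rik (1.17 in KO and -1.03 in WT) and the predicted gene Gm15850 (1.84 and -1.06, both bounds) had opposite calls as well. The difference was not tested, since each group had 1 array. Chrnb1, a subunit of the muscle acetylcholine receptor, had a log2 difference of 2.62 in KO (0.0275 to 0.170) and -1.61 in WT (0.0400 to 0.0131). Galr3, a galanin receptor, had 1.62 in KO and -1.44 in WT. Smtnl2 had 1.73 in KO (0.0488 to 0.162) and -1.98 in WT (0.241 to 0.0609), and was the only 1 of the 4 well above background on all 4 macrophage arrays. Sobp had 1.14 in KO and -1.20 in WT. The values of Chrnb1 and Sobp were bounds in both genotypes, and that of Galr3 was a bound in WT. All 4 were dim, and with normexp background correction their KO values were 0.93, 0.69, 0.79 and 0.50, short of the rule.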

How the results depend on the processing

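The counts of 1065 higher and 892 lower genes became 633 and 1717 under spike-in scaling, 570 and 393 with normexp background correction, 1995 and 1742 once dim probes were kept in, 486 and 360 at a log2 threshold of 1.5, and 269 and 182 at a threshold of 2. They stayed within 1.5 times under the other alternatives, among them the removal of lincRNA probes (935 and 818), which was chosen after seeing the data. Of 242 followed genes past the rule, 160 stayed past it in every alternative that gave a value, and 82 were lost in at least 1, 52 of them under spike-in scaling and 50 with normexp. Named genes that fell short with normexp included Ikbkg, Casp4, Bcl2l11, Csf2, Tnfsf15, Il12b, Il10, Il1r2, Il1rap, Socs2, Cxcl9, Cxcl12, Ccl12, Cmklr1, Mx1, Ncf4, Steap4, Slc40a1, Slc39a8, Cd163, Ptgs2, Pla2g4a, Cd209a, Tlr5, Tlr8, Nlrp3, Nlrc4, Tnfsf4, Pdcd1lg2, Gpr18, Hspa1a, Mxd1, Upk3b, Mmp3, Mmp25, Arg2, Bhlhe41, Gfi1 and Selp. Quantile normalization ended the calls of Cxcl12, Il10, Mdh2, Ncf4, Pla2g4a, Tlr5, Fcgr2b, Marco, Mxd1, Casp4, Ccl5, Tnfsf15, Slc2a1, Bst2, Zbp1 and Txnrd1, and removal of the intensity trend those of Pgk1, Mdh2, Ncf4, Pla2g4a, Marco, Casp4, Ccl5, Csf2rb2, Slc2a1, Bst2 and Txnrd1 among the named genes. Those lost with the median over a gene's probes were Itga6, Hif1a and Mxd1, and Il1rap turned to -0.22 there. The sign of 19 of 55 list medians changed under spike-in scaling and of 7 under quantile normalization. The spike-in scaling lowers every log2 value by 0.30 by construction, and a filter or threshold changes the number of genes that can be called. For the other alternatives the cause was not tested. Signal over background limits what can be read from dim probes. No paired analysis was possible because each group had 1 array, and for the same reason no array could be left out.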
